A study of Mus musculus with 57 samples.

Results

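Colon tumors of INSRfl/fl mice were compared with the treated colon of INSRfl/fl mice that had received the same carcinogen and colitis protocol. The samples were taken by their titles: 8 fl/fl tumors and 10 fl/fl AOM+DSS colon samples, which are 18 of the 57 arrays of the study, each read over 22180 genes. All were distal colon of female C57BL/6 mice of 18 to 24 weeks that carried the floxed insulin receptor gene (Insr) and were labelled as wildtype, without villin-CRE. Both groups had received 7.4 mg/kg AOM by intraperitoneal injection and 3% DSS in week 2 for 7 days, and the mice were killed in week 5 (also given as 3 weeks past the DSS cycle). Beside them stand 10 untreated fl/fl colon samples, 9 tumors and 10 AOM+DSS colon samples of littermates with villin-CRE-INSR-/-, called knockout here. The villin promoter drives Cre in the intestinal epithelium, so other cells of the knockout colon keep Insr. The labels call each array a biological replicate. Whether one array holds a single tumor, and whether any tumor shared an animal with a colon sample, is not given. The number of independent animals is therefore not known. The p-values treat each array as a separate unit and set each change against the spread within groups over all 57 arrays.

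AOM (azoxymethane) is a carcinogen that alkylates DNA, and in mice its tumors often carry activated beta-catenin, the effector of Wnt signalling. DSS (dextran sulfate sodium) strips the colon epithelium and brings on inflammation, and together they give tumors in the distal colon. In a healthy crypt, Wnt signals at the base keep stem cells dividing, and cells that move up to the surface switch to absorbing salt and water, secreting mucus or releasing hormones. Beta-catenin acts through TCF/LEF factors, which also raise genes of Wnt inhibitors such as Notum and Axin2, a negative feedback.

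Levels below are RMA log2 expression values, on which a difference of 1 is 2-fold, and 3 values given for a group are its lowest, median and highest sample. Changes are tumor minus AOM+DSS colon with their SE from limma, and a gene rose or fell where its adjusted p was under 0.05. Of 22180 genes, 9143 passed (41.2%), of which 4661 (21.0%) rose and 4482 (20.2%) fell, and the median change of all genes was 0.018. At least 2-fold, 436 (1.97%) rose and 685 (3.09%) fell. The groups did not overlap for 1245 genes higher in tumors (5.61%) and 1416 lower in tumors (6.38%), so the counts of each gene group below are to be read against these shares. The lists were chosen with earlier results of these data known, so a count above these shares is a description and not a test. Medians of the 18 arrays lay between 5.93 and 6.02, and the mean Pearson correlation of each with the others of its group between 0.984 and 0.990.

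The labelled tissue was checked against markers first. Epcam, an adhesion protein gene of gut epithelium, read 11.86, 12.01 and 12.22 in tumors and 11.70, 12.01 and 12.08 in AOM+DSS colon and did not pass (0.049 ± 0.052), although it did with a further quantile normalization (0.17 ± 0.045, adjusted p = 0.00118). Cdh1, which encodes E-cadherin, read 12.05, 12.22 and 12.38 in tumors and 12.08, 12.24 and 12.43 in colon and did not pass either (-0.028 ± 0.047). The muscle wall differed far more. Of 19 measured smooth muscle genes, 18 fell and none rose, with a median of -1.74, and for 17 the groups did not overlap. Actg2, the enteric smooth muscle actin, was 10.15, 10.71 and 11.22 in tumors and 12.19, 12.49 and 12.70 in colon, and Myh11, the smooth muscle myosin heavy chain, fell by 1.74 ± 0.17. Per array the mean of the 19 genes ranged from 8.21 to 9.08 in tumors and from 9.73 to 10.53 in AOM+DSS colon, with no overlap. Nerve genes fell with it: 13 of 15 enteric neuron markers fell, among them Snap25 of the synapse (-2.08 ± 0.16) and the neuropeptide gene Vip (-1.64 ± 0.16), and 1 rose, the receptor gene Ret (0.81 ± 0.14). In bulk samples such as these, fewer cells of a type and less RNA per cell cannot be told apart. When the smooth muscle mean entered the fit as a covariate, 1849 genes passed. Of the 9143 calls, 1741 kept their direction and 7 passed in the opposite direction. Because the covariate does not overlap between the groups, its part and the tumor's part cannot be told apart by that fit. The covariate also widened the errors, the median standard error over all genes going from 0.086 to 0.18, so a call can be lost there with little change in its size. How many calls remained is given for the gene groups below as a measurement.

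**Figure D1:**
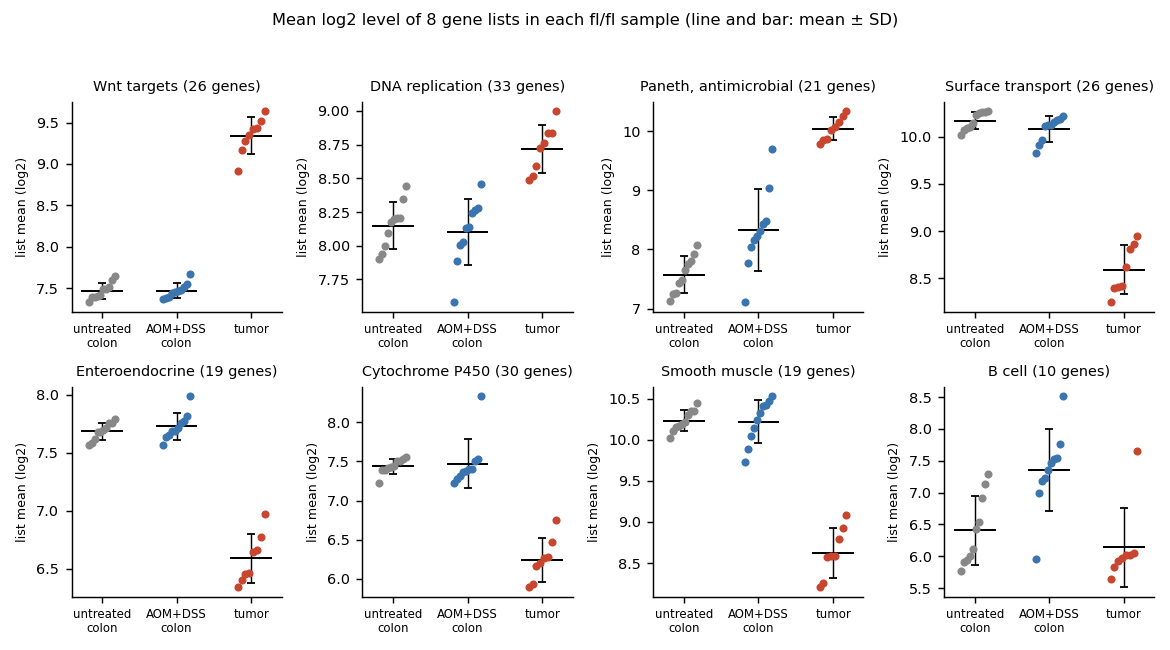
Mean log2 level of 8 gene lists in each fl/fl sample (grey: 10 untreated colon, blue: 10 AOM+DSS colon, red: 8 tumors), each panel on its own axis with a line and bar for the mean ± SD. Tumors lie above every AOM+DSS colon sample for Wnt targets, DNA replication and Paneth genes and below every one for surface transport, enteroendocrine, cytochrome P450 and smooth muscle genes, while the B cell means overlap.

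Genes that Wnt signalling switches on were among the largest rises. Of 26 measured Wnt targets and feedback genes, 22 rose and 2 fell, with a median of 1.69, and for 19 every tumor lay above every AOM+DSS colon sample. Notum, a secreted enzyme that inactivates Wnt ligands, read 5.29, 5.52 and 5.95 in colon and 10.20, 10.72 and 10.94 in tumors, 34.4-fold higher at 5.10 ± 0.11 (adjusted p = 1.49e-41). Untreated colon read 5.18, 5.57 and 6.02, so all 8 tumors stood far above both kinds of colon, whose ranges overlapped. Wif1, a Wnt-binding inhibitor, went from 6.63, 7.07 and 7.75 in colon to 12.02, 12.30 and 12.69 in tumors, a change of 5.15 ± 0.14 (adjusted p = 7e-37). Prox1, a homeobox factor that Wnt raises in colon tumors, went from 6.02, 6.44 and 7.74 in colon to 10.65, 11.43 and 11.74 in tumors (4.82 ± 0.14, adjusted p = 8.77e-35). Prox1 also marks lymphatic endothelium, of which 5 of the other 6 measured genes fell, for example Lyve1 at -1.04 ± 0.14, and the part of these cells in the Prox1 value was not tested. The antagonists Dkk2 (3.70 ± 0.16), Nkd1 (3.36 ± 0.12) and Apcdd1 (3.47 ± 0.20) and the destruction complex scaffold Axin2 (2.45 ± 0.10) rose as well. So did the ubiquitin ligases Rnf43 (2.00 ± 0.087) and Znrf3 (1.79 ± 0.10), which remove Wnt receptors, and the TCF/LEF factor Lef1 (2.46 ± 0.10). In each of these 7 genes all tumors were above all colon samples. The growth regulators Myc and Ccnd1, which encodes cyclin D1, rose by less, 1.03 ± 0.10 and 0.78 ± 0.085. The 2 falls were without overlap. Nkd2, a relative of Nkd1, went from 7.58, 7.96 and 8.26 in colon to 6.44, 6.73 and 7.05 in tumors, and Cdx1, an intestinal homeobox gene, fell by 1.07 ± 0.11. Trib3 (0.23 ± 0.10, adjusted p = 0.0581) and Tdgf1 (0.033 ± 0.10) did not pass, and Trib3 passed without tumor replicate 2 or 7 or colon replicate 1, 2, 4 or 5 (lowest adjusted p = 0.0282). With the smooth muscle covariate, 20 of the 22 rises and the fall of Cdx1 remained. Exceptions were Cd44 and Ephb3, at Cd44 0.90 ± 0.30 and Ephb3 0.56 ± 0.23, and Nkd2 at -0.24 ± 0.19.

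Promoter sequence is shown for the 3 Wnt list genes whose listed promoters hold the core letters of TCF/LEF sites, because these genes rose together. The RefSeq table (GRCm38.p6) gave the 250 bases before a start site for 17 of the 26 genes. Capitals mark CTTTGA, or TCAAAG where it lies on the other strand, each 5′ to 3′ in the direction of the gene. The windows are chr2:70474673-70474922 (plus strand) for Sp5, chr3:131156044-131156293 (plus strand) for Lef1, 1 of 4 listed for that gene, and chr14:61037988-61038237 (minus strand) for Tnfrsf19, 1 of 2.
Sp5: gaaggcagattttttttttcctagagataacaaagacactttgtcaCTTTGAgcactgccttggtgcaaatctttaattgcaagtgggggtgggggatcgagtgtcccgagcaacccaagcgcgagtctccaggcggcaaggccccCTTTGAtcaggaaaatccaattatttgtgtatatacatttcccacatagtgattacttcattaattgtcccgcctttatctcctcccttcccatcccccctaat
Lef1: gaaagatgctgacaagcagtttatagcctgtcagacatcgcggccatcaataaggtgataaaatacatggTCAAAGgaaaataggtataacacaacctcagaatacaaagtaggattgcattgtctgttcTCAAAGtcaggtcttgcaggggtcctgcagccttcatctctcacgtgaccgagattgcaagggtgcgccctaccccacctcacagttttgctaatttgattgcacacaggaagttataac
Tnfrsf19: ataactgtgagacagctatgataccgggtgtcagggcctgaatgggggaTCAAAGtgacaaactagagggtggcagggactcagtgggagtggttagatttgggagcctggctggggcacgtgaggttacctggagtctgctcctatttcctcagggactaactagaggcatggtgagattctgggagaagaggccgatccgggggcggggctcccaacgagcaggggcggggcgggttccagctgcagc
Sp5, a zinc finger factor induced by Wnt, has 2 copies and rose by 1.58 ± 0.12, from 5.20, 5.65 and 6.00 in colon to 6.46, 7.24 and 7.77 in tumors. Lef1 has 2 copies and read 6.55, 6.80 and 7.10 in colon and 8.53, 9.35 and 9.64 in tumors, and Tnfrsf19, a receptor of the tumor necrosis factor family found on stem cells, has 1 copy and read 6.64, 7.11 and 7.41 in colon and 8.82, 9.26 and 9.72 in tumors. In all 3 the groups did not overlap. The 6 letters are common. They occur in 13.8% of all 32851 promoter windows of this length and in 12.8% of the 20611 windows of measured genes. The share was 15.3% for windows of genes that rose at least 2-fold and 13.5% for those that fell at least 2-fold. It was 13.0% for the 23 windows of the Wnt list. The longer form CTTTGAT, which contains these 6 letters, was searched on both strands too. It occurs in 3.21% of all windows and in 2.89% of those of measured genes. The share was 5.34% for 2-fold rises and 2.30% for 2-fold falls, and 2 of the 23 Wnt list windows (8.70%) held it. A match is a description of these letters and not of binding.

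Wnt ligands, receptors and R-spondins did not move one way. Of 37 measured, 11 rose and 14 fell, with a median of -0.060. The ligand genes Wnt10a (1.36 ± 0.13), Wnt6 (1.21 ± 0.12) and Wnt3 (0.78 ± 0.11) rose. The stromal ligand gene Wnt2b (-0.82 ± 0.12) fell, as did Rspo3, which encodes an R-spondin that boosts Wnt receptors from the stroma (-1.52 ± 0.14, adjusted p = 2.46e-14). Rspo3 read 7.95, 8.28 and 8.86 in colon and 6.54, 6.76 and 7.07 in tumors with no overlap. Receptor genes split as well, with Fzd5 at -0.87 ± 0.092, Ror1 at -1.36 ± 0.093 and the co-receptor Lrp5 at 0.70 ± 0.081. Only 3 of the 11 rises (Wnt10a, Wnt6 and Lrp5) and 2 of the 14 falls (Ror1 and Fzd4) remained with the smooth muscle covariate.

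Stem cell genes rose with the Wnt targets, with which the list shares 5 genes. Of 17 measured, 12 rose and 2 fell, with a median of 0.79. Lgr5, the R-spondin receptor that marks crypt base stem cells, went from 5.99, 6.92 and 7.66 in AOM+DSS colon to 9.85, 10.34 and 10.66 in tumors (3.37 ± 0.14, adjusted p = 1.63e-28). Untreated colon read 7.39, 7.61 and 8.19, below every tumor and overlapping AOM+DSS colon. Smoc2, a matrix protein gene of the same cells, rose by 1.77 ± 0.10, and the factor genes Ascl2 and Sox9 by 1.36 ± 0.12 and 0.94 ± 0.13. Olfm4, another gene used to mark intestinal stem cells, did not follow: it read 4.80, 6.12 and 8.83 in tumors and 5.05, 5.84 and 9.65 in colon (0.032 ± 0.55, adjusted p = 0.972), spread over several log2 units in both groups. Rgmb, a BMP co-receptor, fell by 0.80 ± 0.079 and Lrig1, a brake on ErbB receptors, fell by 0.30 ± 0.089. Genes of regenerating and fetal-like epithelium moved less, 11 up and 3 down of 20. Clu, which encodes clusterin and marks revival stem cells, rose by 1.32 ± 0.14 and the keratin gene Krt7 by 1.01 ± 0.077, each without overlap. Anxa1, whose product resolves inflammation, was at -0.0011 ± 0.13. Of the 12 stem cell rises 10 remained with the smooth muscle covariate and of the 11 regenerative rises 5, Clu and Krt7 among them, but none of the 2 and 3 falls.

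**Figure D2:**
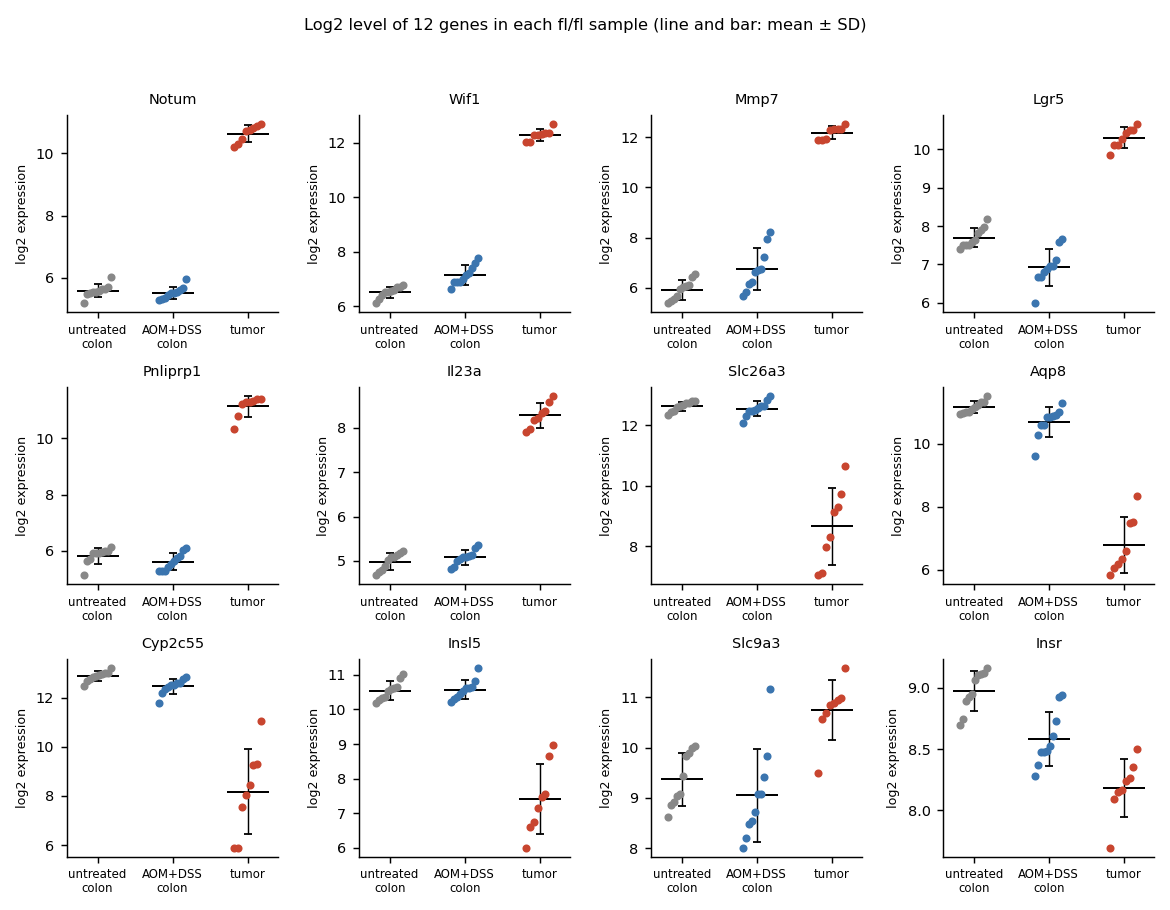
Log2 expression of 12 genes in each of the 10 untreated colon (grey), 10 AOM+DSS colon (blue) and 8 tumor (red) samples of fl/fl mice, each panel on its own axis, with a line and bar for the mean ± SD. Notum, Wif1, Mmp7, Lgr5, Pnliprp1 and Il23a are higher and Slc26a3, Aqp8, Cyp2c55 and Insl5 lower in every tumor than in any AOM+DSS colon sample, whereas Slc9a3 and Insr overlap.

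Division genes rose nearly throughout their list. For 11 of 33 DNA replication and mitosis genes every tumor lay above every colon sample. In all, 30 rose and none fell, with a median of 0.70. The other 3 did not pass, at E2f1 0.20 ± 0.094, Cdt1 0.22 ± 0.11 and E2f8 0.10 ± 0.16, but E2f1 passed without tumor replicate 3 (adjusted p = 0.0257) and Cdt1 without colon replicate 6 (adjusted p = 0.0325). Mcm7 and Mcm2, subunits of the replicative helicase, rose by 0.95 ± 0.097 and 0.80 ± 0.10, and Top2a, the topoisomerase of dividing cells, by 0.95 ± 0.14. Mki67, the gene of the Ki-67 antigen, changed by a smaller 0.45 ± 0.11 and overlapped, with 9.52, 10.25 and 10.57 in colon and 10.50, 10.64 and 10.82 in tumors. Ribosome biogenesis genes gave 24 rises and 1 fall of 25, with a median of 0.48, and 12 were without overlap. They were led by Nop56, of the particles that modify ribosomal RNA (0.87 ± 0.078), and Nhp2 (0.81 ± 0.076), while Utp20 fell by 0.21 ± 0.065. None of the 30 or the 24 rises remained with the smooth muscle covariate. Mcm7, for example, became 0.43 ± 0.20 (adjusted p = 0.196) and Nop56 0.39 ± 0.15 (adjusted p = 0.117).

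Genes of secreted defence proteins, many of them normally of Paneth cells in the small intestine, were among the largest rises too. Of 21 measured Paneth and antimicrobial genes, 13 rose and 2 fell, with a median of 1.11, and for 6 every tumor lay above every colon sample. The list mean per array ranged from 7.11 to 9.69 in colon and from 9.79 to 10.34 in tumors. Mmp7, the protease that activates defensins, read 5.68, 6.66 and 8.20 in colon and 11.87, 12.29 and 12.53 in tumors (43.6-fold, 5.44 ± 0.26, adjusted p = 3.47e-25). Lyz1, the Paneth lysozyme, read 8.41, 9.47 and 11.87 in colon and 12.87, 13.24 and 13.51 in tumors (3.57 ± 0.35, adjusted p = 9.62e-13). The tumors lay close together for Lyz1, whereas the colon samples were spread widely below them. Pla2g2a, a phospholipase that kills bacteria, rose by 3.39 ± 0.26, the ribonuclease Ang4 by 4.32 ± 0.64 and the lectin Itln1 by 4.01 ± 0.47. The defensin genes Defa24 (3.56 ± 0.55) and, outside the list, Defa35 (4.02 ± 0.43) and Defa41 (3.95 ± 0.31) were among the 24 largest rises, and since defensins are close copies of one another their probe sets may share signal. Reg3g, a lectin induced by bacteria, rose by 3.19 ± 0.68 but spanned 4.68 to 11.02 in colon. Reg3b (0.59 ± 0.71) and Retnlb (-0.0016 ± 0.64) did not pass. Lcn2, which starves bacteria of iron, rose by 2.85 ± 0.23, while Pigr, the carrier of IgA through epithelium, fell by 0.64 ± 0.067 and Slpi fell by 0.57 ± 0.17. Of the 13 rises, Mmp7, Pla2g2a and Lyz1 remained with the smooth muscle covariate, and of the 2 falls Pigr.

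Other leading rises belonged to lipid digestion, metal binding and matrix. Pnliprp1, a pancreatic lipase relative, read 5.27, 5.59 and 6.10 in colon and 10.34, 11.30 and 11.41 in tumors (46.1-fold, 5.53 ± 0.15, adjusted p = 1.04e-36). Pnliprp2 rose by 4.31 ± 0.32 and Clps, the lipase cofactor colipase, by 0.68 ± 0.20. The rest of the pancreatic-type list did not follow, with Cela1 at -1.18 ± 0.14 and Spink1 at -0.76 ± 0.12 lower and 9 of 14 not passing, among them Cpa1 (-0.18 ± 0.14) and Cel (-0.26 ± 0.14). Sycn, syncollin of secretory granules, fell by 2.84 ± 0.23. The metallothionein genes Mt4 and Mt3, normally of squamous epithelium and brain, rose by 4.74 ± 0.30 and 3.53 ± 0.16, but the general metallothionein Mt1 was at 0.15 ± 0.081 (adjusted p = 0.129; with a further quantile normalization 0.29 ± 0.079, adjusted p = 0.00223) whereas Mt2 rose by 0.82 ± 0.14. Slc30a2, a zinc exporter, rose by 3.71 ± 0.16 and Slc39a8, a zinc importer, by 1.33 ± 0.12, and Slc39a5, another importer, fell by 1.44 ± 0.15. Of 12 metallothionein and zinc transport genes 7 rose and 3 fell. Matrix proteases beyond Mmp7 rose too, with Mmp12 at 3.26 ± 0.18, Mmp10 at 3.22 ± 0.23 and Mmp13 at 2.71 ± 0.28, and 10 of 17 members of that list rose and 5 fell. The inhibitor Timp1 rose (0.90 ± 0.13) and the inhibitor Timp4 fell (-0.94 ± 0.16). Under the smooth muscle covariate 6 of the 7 rises and the 3 falls of the zinc list remained, 5 of the 10 rises and none of the 5 falls of the protease list, and in the pancreatic-type list Pnliprp1, Pnliprp2 and Spink1. Spock2, a matrix proteoglycan, rose 31.3-fold from 6.87, 7.06 and 7.57 in colon to 11.24, 12.15 and 12.48 in tumors. The other leading rises were Erich3 (4.27 ± 0.15), complement factor I gene Cfi (4.17 ± 0.15), the cyclic GMP-dependent kinase gene Prkg2 (4.09 ± 0.25), the serine protease gene Habp2 (3.83 ± 0.13), the adenylyl cyclase gene Adcy8 (3.67 ± 0.15), the hair keratin gene Krt36 (3.57 ± 0.23) and the antisense RNA gene Tbx3os2 (3.49 ± 0.25). In all 7 every tumor lay above every colon sample. Tumor replicate 7 was the lowest tumor for Mt4 (7.34), Krt36 (7.39) and Erich3 (8.42), apart from the other 7 in Mt4, which lay between 9.73 and 10.41.

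**Figure D3:**
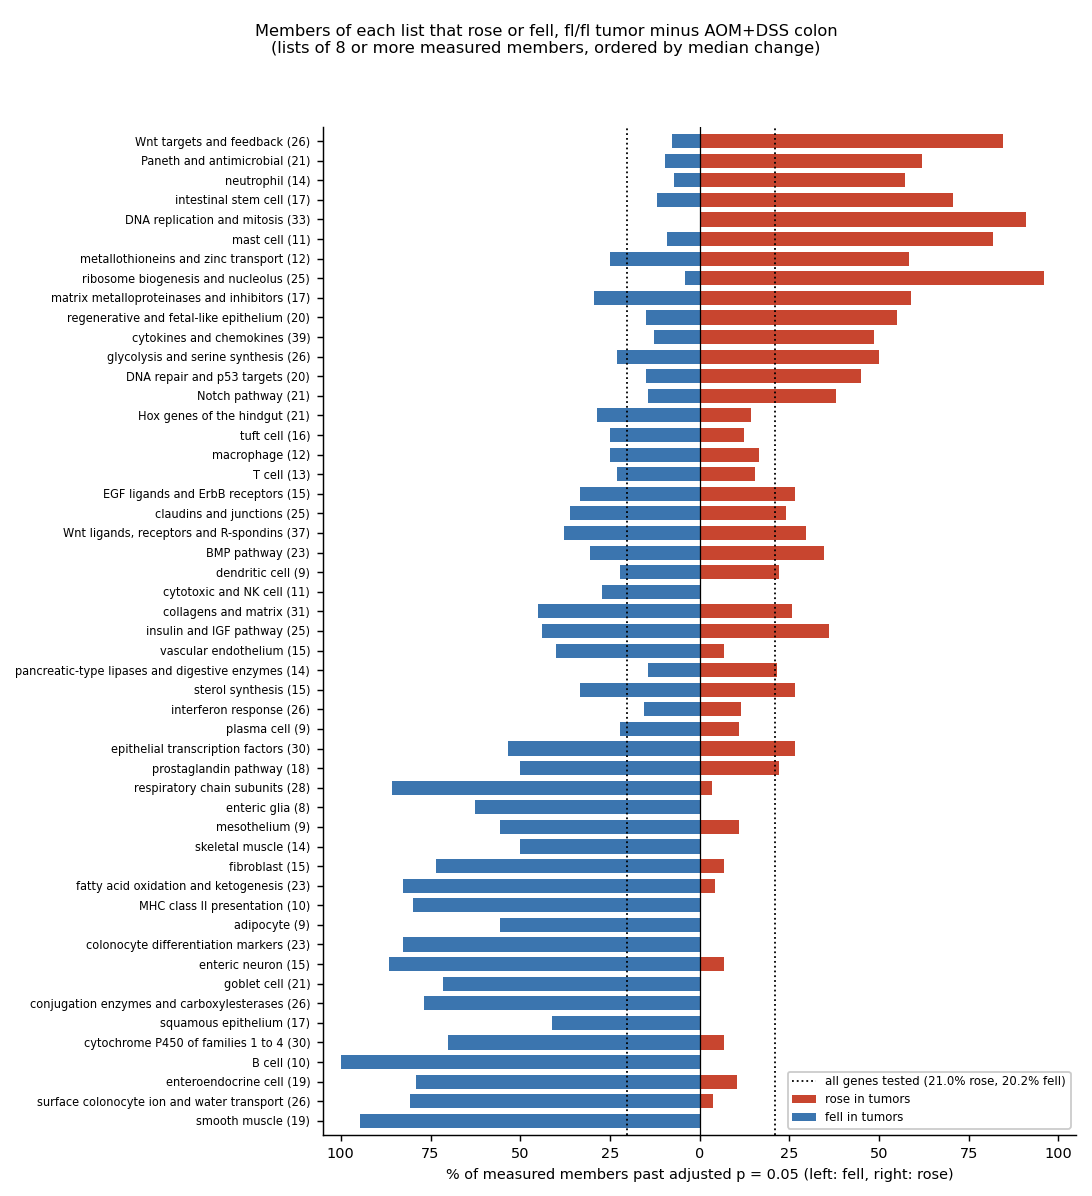
Share of the measured members of each gene list that rose (red, to the right) or fell (blue, to the left) in fl/fl tumors, for lists of 8 or more measured members with their number in brackets, ordered by median change. Dotted lines mark the shares over all 22180 genes, 21.0% higher and 20.2% lower.

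The transport machinery of the colon surface had the lowest median of the epithelial lists. Of 26 measured genes for ion and water transport, 21 fell and 1 rose, with a median of -1.45, and for 18 every tumor lay below every colon sample. Slc26a3, the chloride-bicarbonate exchanger of the surface, read 12.08, 12.53 and 12.96 in colon and 7.04, 8.73 and 10.65 in tumors (14.7-fold lower, -3.88 ± 0.30, adjusted p = 1.59e-16). The water channel gene Aqp8 read 9.61, 10.84 and 11.29 in colon and 5.81, 6.47 and 8.33 in tumors (-3.89 ± 0.22, adjusted p = 1.38e-21), and the carbonic anhydrase gene Car4 read 11.21, 11.88 and 12.17 in colon and 7.11, 8.21 and 9.45 in tumors (-3.56 ± 0.26, adjusted p = 1.5e-17). None of these overlapped, but the range of the tumors was wider than that of the colon samples for each of the 3 genes. Slc5a8 and Slc16a1, which carry short-chain fatty acids from bacteria, fell, at -2.37 ± 0.15 and -1.37 ± 0.087. The sulfate carrier Slc26a2 fell by 2.13 ± 0.13 and the magnesium channel Trpm6 fell by 2.06 ± 0.18. Aldosterone response genes fell together, namely the receptor Nr3c2 (-1.51 ± 0.11), the enzyme Hsd11b2 that shields it (-1.88 ± 0.17) and the sodium channel subunits Scnn1a (-1.29 ± 0.11), Scnn1g (-1.78 ± 0.27) and Scnn1b (-0.70 ± 0.17). The sodium-proton exchangers went apart. Slc9a2 fell by 2.01 ± 0.15, and Slc9a3 rose by 1.70 ± 0.33 (adjusted p = 2e-05), from 8.01, 8.89 and 11.16 in colon to 9.50, 10.86 and 11.58 in tumors, with 1 tumor above the highest colon sample. With the smooth muscle covariate 16 of the 21 falls remained, whereas Slc9a3 became -0.47 ± 0.63.

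Markers of mature surface cells followed. Of 23 measured, none rose and 19 fell, with a median of -0.72. They included Tgm3, a transglutaminase (-3.27 ± 0.26), Sult1a1, a sulfotransferase (-2.95 ± 0.21), Hpgd, which degrades prostaglandins (-1.75 ± 0.14), and the guanylin gene Guca2a (-1.16 ± 0.18). Krt20, a keratin of surface cells, fell by 0.67 ± 0.13, and Vil1, whose promoter drives Cre in the knockout, fell by 0.40 ± 0.069. Alpi (-0.72 ± 0.59), Tmigd1 (-0.48 ± 0.30) and Ugt2b5 (-0.055 ± 0.10) did not pass. Slc15a1, the peptide carrier, fell by 2.89 ± 0.21 and Slc6a4, the serotonin carrier, fell by 2.68 ± 0.18, both among the 24 largest falls. Mptx1, a mucosal pentraxin, fell by 3.26 ± 0.35 from a colon level that lay below untreated colon, at 8.12, 9.54 and 10.68 after AOM+DSS against 10.87, 11.32 and 11.69. With the smooth muscle covariate 8 of the 19 falls remained.

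Genes of hormone and mucus cells fell, and those of tuft cells mostly did not pass. Among enteroendocrine genes 15 of 19 fell and 2 rose, with a median of -1.18, and for 13 the groups did not overlap. Insl5, a peptide hormone of distal colon L cells, read 10.21, 10.57 and 11.20 in colon and 6.00, 7.31 and 8.99 in tumors (9.07-fold lower, -3.18 ± 0.26, adjusted p = 1.56e-15). Gcg, which encodes GLP-1 (-2.28 ± 0.17), Pyy (-2.19 ± 0.15), Chgb of secretory granules (-2.14 ± 0.17), Sst (-1.67 ± 0.17) and Tph1 of serotonin synthesis (-1.71 ± 0.17) fell as well. Nts, which encodes neurotensin, rose by 0.44 ± 0.15 and the factor gene Isl1 by 0.54 ± 0.22 (adjusted p = 0.0407), but Isl1 spanned 7.11 to 10.00 in tumors and did not pass without tumor replicate 1, 4 or 7 or colon replicate 1, 3, 6 or 7 (highest adjusted p = 0.195). Of 21 goblet cell genes 15 fell and none rose, with a median of -0.79. Rep15 (-2.17 ± 0.19), the mucus protein gene Zg16 (-1.66 ± 0.24) and the goblet cell factor Atoh1 (-1.27 ± 0.13) fell, yet the main mucin gene Muc2 did not pass, at 12.63, 13.16 and 13.51 in tumors and 13.04, 13.35 and 13.55 in colon (-0.19 ± 0.085, adjusted p = 0.0645). Muc2 passed without tumor replicate 2, tumor replicate 7 or colon replicate 9 (adjusted p = 0.0276, 0.0174 and 0.028). Tuft cell genes gave 2 rises and 4 falls of 16 (12.5% and 25%), near the 21.0% and 20.2% of all genes. Avil, which encodes the actin-bundling advillin, rose by 3.00 ± 0.14 without overlap, while Dclk1 fell by 0.75 ± 0.11 and Trpm5 (-0.013 ± 0.11), Pou2f3 (0.13 ± 0.12) and Il25 (0.0046 ± 0.075) did not pass. With the smooth muscle covariate 11 of the 15 enteroendocrine falls, 11 of the 15 goblet falls and none of the tuft falls remained.

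Detoxification genes held much of the list of largest falls. Of 30 cytochrome P450 genes 21 fell and 2 rose, with a median of -1.05, and of 26 conjugating enzymes and carboxylesterases 20 fell and none rose, with a median of -0.85. Cyp2c55, a colonic P450 that oxidises fatty acids, had the largest fall of all named genes, from 11.78, 12.52 and 12.83 in colon to 5.90, 8.25 and 11.03 in tumors (-4.28 ± 0.39, adjusted p = 7.11e-14). Others were Cyp2d13 (-3.28 ± 0.21), Cyp2d12 (-3.23 ± 0.27), Cyp2c68 (-3.13 ± 0.25) and Cyp3a13 (-2.77 ± 0.21), and P450 genes of one subfamily are near copies whose probe sets may share signal. Cyp2b10, a gene that drugs induce through the receptor CAR, rose by 1.31 ± 0.39 (adjusted p = 0.0045), but its highest value of all was a colon sample, replicate 7 at 9.76, while the other 9 read at most 6.26, below every tumor. Cyp2j6 rose by 0.22 ± 0.075 and did not pass without tumor replicate 7 (adjusted p = 0.0786). Among conjugating genes the carboxylesterase Ces2a fell by 3.11 ± 0.19, the sulfotransferase Sult1d1 fell by 2.42 ± 0.16 and the glutathione transferase Gstm3 fell by 2.24 ± 0.21. Oxidoreductases outside these lists were also among the 24 largest falls, with Maob at -2.75 ± 0.14, Akr1c14 at -2.82 ± 0.17, Hsd3b3 at -2.93 ± 0.38, Hao2 at -2.73 ± 0.35 and Fmo2 at -2.70 ± 0.19. Remaining calls with the smooth muscle covariate were 12 of 21 and 14 of 20.

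Mitochondrial fuel genes fell by smaller amounts. For fatty acid oxidation and ketogenesis 19 of 23 fell and 1 rose, with a median of -0.50. Acss2, which activates acetate, fell by 1.47 ± 0.11 and Cpt1a, the gate of fatty acid entry into mitochondria, fell by 0.85 ± 0.075, both without overlap, and Pdk4, which restrains pyruvate oxidation, rose by 0.44 ± 0.18 (adjusted p = 0.0491), a call lost without tumor replicate 1, 3, 4 or 8 or colon replicate 2, 4, 6, 8, 9 or 10 (highest adjusted p = 0.144). For respiratory chain subunits 24 of 28 fell and 1 rose, with a median of -0.32, but the groups did not overlap for only 1 of the falls (Sdha, -0.34 ± 0.051). Ndufa4 was the 1 rise, at 0.55 ± 0.053 (adjusted p = 3.76e-13), from 10.56, 10.86 and 10.96 in colon to 11.20, 11.39 and 11.49 in tumors. Glycolysis and serine synthesis were mixed, 13 up and 6 down of 26. The amino acid carriers Slc7a11 (1.55 ± 0.23) and Slc7a5 (1.09 ± 0.13) and the serine synthesis enzyme Psat1 (0.69 ± 0.11) rose, Hk1 (-0.70 ± 0.058) and Ldha (-0.48 ± 0.062) fell, and Slc2a1, the glucose carrier, was at -0.11 ± 0.059. Of 15 sterol synthesis genes 4 rose and 5 fell (26.7% and 33.3%, against 21.0% and 20.2% of all genes). With the smooth muscle covariate 7 of the 19 fatty acid oxidation falls and 4 of the 24 respiratory chain falls remained, as did Ndufa4. In the glycolysis list none of the 13 rises and 3 of the 6 falls remained, and in the sterol list none of the 4 rises and 1 of the 5 falls.

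Transcription factors of the epithelium shifted in both directions, 8 up and 16 down of 30. Klf4, a factor of mature surface and goblet cells, fell from 10.58, 11.03 and 11.39 in colon to 9.08, 9.26 and 9.77 in tumors (-1.74 ± 0.11, adjusted p = 2.62e-19) and Vdr, the vitamin D receptor, from 11.20, 11.54 and 11.85 in colon to 9.49, 9.88 and 10.42 in tumors (-1.64 ± 0.10, adjusted p = 4.2e-20). Neither overlapped. Hnf4g (-1.36 ± 0.14), Hnf4a (-0.58 ± 0.070) and the bile acid receptor Nr1h4 (-1.01 ± 0.12) fell too. Gata5 rose from 5.67, 5.88 and 7.27 in colon to 7.64, 8.53 and 9.00 in tumors (2.48 ± 0.15) and Sox4 by 2.44 ± 0.085. Cdx2, the intestinal master factor related to Cdx1, read 6.94, 7.50 and 8.78 in tumors and 7.01, 7.98 and 8.71 in colon and did not pass (-0.24 ± 0.23, adjusted p = 0.442). It passed without tumor replicates 2, 6 and 7 (-0.61 ± 0.25, adjusted p = 0.0487), which are described next. Of this list 4 of the 8 rises and 9 of the 16 falls remained with the smooth muscle covariate, and Hnf4a did not (-0.40 ± 0.15).

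Hox genes, which encode position along the gut, set some tumors apart. Of 21 measured, 3 rose and 6 fell (14.3% and 28.6%, against 21.0% and 20.2% of all genes). Hoxa9 rose by 0.78 ± 0.079 with every tumor above every colon sample, and Hoxb13 fell by 0.79 ± 0.14. Hoxd13, the most distal gene of its cluster, read 5.78, 7.85 and 5.64 in tumor replicates 2, 6 and 7 and between 10.28 and 10.66 in the other 5, within the colon range of 9.64 to 10.91. Its change over all tumors was -1.74 ± 0.57 (adjusted p = 0.0104), with 3 of 8 tumors below the lowest colon sample, and it was lost without tumor replicate 2 (adjusted p = 0.0584) or 7 (adjusted p = 0.059). Hoxd11 and Hoxd10 had the same 3 tumors lowest, at 5.91, 6.73 and 5.96 for Hoxd11 and 6.09, 6.60 and 6.23 for Hoxd10. Their calls were lost too, that of Hoxd10 without tumor replicate 2 (adjusted p = 0.0548) and that of Hoxd11 without tumor replicate 2, 6 or 7 or colon replicate 1, 2, 3, 5 or 10 (highest adjusted p = 0.172). With the squamous epithelium mean as a covariate the calls of Hoxd13, Hoxd10 and Hoxd11 were lost (adjusted p = 0.0591, 0.0659 and 0.178). The smooth muscle covariate turned their sign, to 0.38 ± 1.19, 0.95 ± 0.57 and 1.16 ± 0.84, and of the 9 Hox calls that of Hoxa9 remained. Colon replicate 6 was the lowest colon sample for Hoxd13 (9.64) and Hoxd11 (7.72). Tumor replicates 2, 6 and 7 were the highest for several surface genes. Slc26a3 read 9.74, 9.30 and 10.65 in them and at most 9.15 in the others, Cyp2c55 9.29, 9.25 and 11.03 against at most 8.46, and Car4 9.45, 9.44 and 9.42 against at most 8.73. All stayed below the lowest colon sample. Without these 3 tumors 8394 genes passed, 4293 higher and 4101 lower, and 7880 of the 9143 calls kept their direction, an alternative chosen after seeing the data. Among named genes it ended the calls of Irs2 (adjusted p = 0.0986), Clps (0.107), Slpi (0.124), Cyp2j6 (0.163) and Krt6a (0.343), and Muc2 (0.00147) and Trib3 (0.017) passed. The calls of the 3 Hoxd genes ended too, but the tumors were left out for their low Hoxd13, so that loss followed from the choice.

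**Figure D4:**
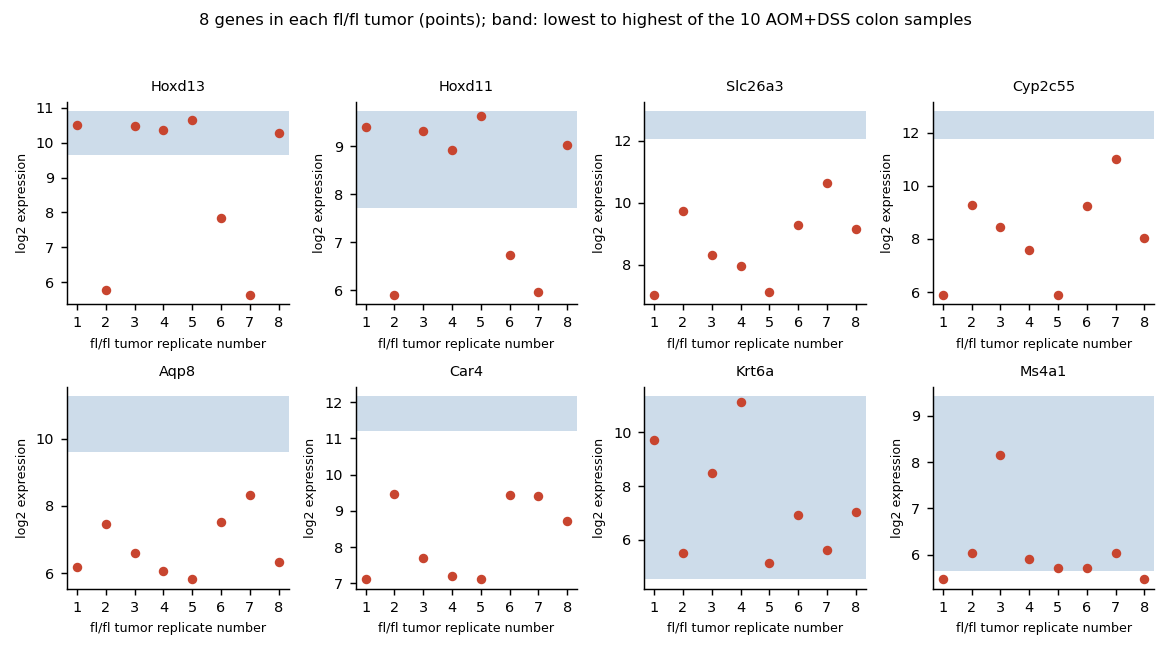
Log2 expression of 8 genes in each fl/fl tumor by replicate number (red points), with the range of the 10 AOM+DSS colon samples as a blue band. Tumors 2, 6 and 7 are low in Hoxd13 and Hoxd11 and are the 3 highest tumors for Slc26a3, Cyp2c55, Aqp8 and Car4, tumor 4 is highest for the squamous gene Krt6a and tumor 3 for the B cell gene Ms4a1.

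Markers of tissues outside the mucosa varied widely within the groups. Of 17 squamous epithelium genes 7 fell and none rose, and their mean per array ranged from 5.64 to 8.59 in tumors and from 5.32 to 9.06 in colon. Krt6a, a keratin of stratified epithelium, read 5.16, 6.97 and 11.10 in tumors and 4.54, 10.20 and 11.35 in colon (-2.21 ± 0.91, adjusted p = 0.0449), its highest tumor was replicate 4, and the call was lost without tumor replicate 2, 5, 6, 7 or 8 or colon replicate 2, 3, 4, 5, 7, 8, 9 or 10 (highest adjusted p = 0.108). Tmprss11a, a protease of squamous tissue, was among the 24 largest falls at -2.75 ± 0.73 but overlapped in 5 of 8 tumors. Car3, an abundant carbonic anhydrase of skeletal muscle and fat, fell by 3.27 ± 0.63, and 7 of the 14 skeletal muscle genes and 5 of 9 adipocyte genes fell, among them Fabp4 (-1.62 ± 0.24). Retnla, a resistin-like gene of fat and of alternatively activated macrophages, fell by 2.82 ± 0.25. With the squamous mean as a covariate 8735 genes passed, 8373 of them calls in the same direction as without it. Beside the Hoxd genes it ended the calls of Foxp3 (adjusted p = 0.0615) and Slpi (0.0531), while Muc2 (0.00301) and Anxa1 (0.25 ± 0.089, adjusted p = 0.0194) passed. None of the 7 squamous, 7 skeletal muscle and 5 adipocyte falls remained with the smooth muscle covariate, which turned the sign of Krt6a (1.51 ± 1.89), Tmprss11a (0.98 ± 1.48) and Car3 (0.73 ± 1.23) and brought Retnla to -0.68 ± 0.43 (adjusted p = 0.409). The part of skeletal muscle and fat genes in these results was not tested.

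Among stromal lists, falls outnumbered rises. Of 15 fibroblast genes 11 fell and 1 rose, for example Lum (-1.67 ± 0.21), while Col1a1 (-0.080 ± 0.12), the chain of the main fibre collagen, did not pass. Collagen and matrix genes gave 8 rises and 14 falls of 31, with Thbs2 (1.34 ± 0.16) and Col12a1 (0.89 ± 0.13) higher and Postn (-1.29 ± 0.13) lower. Vascular endothelium gave 6 falls and 1 rise of 15, the rise being Sox17 (0.95 ± 0.17). Junction genes of the epithelium were split, 6 up and 9 down of 25 (24% and 36%, against 21.0% and 20.2% of all genes). Cldn4 rose by 2.14 ± 0.13 and Cldn8, a claudin that seals the distal colon, fell by 1.46 ± 0.17, each without overlap. None of the fibroblast or endothelial calls remained with the smooth muscle covariate, while 4 of the 8 rises and none of the 14 falls of the collagen list did, and 2 of the 6 rises and 2 of the 9 falls of the junction list, Cldn4 and Cldn8 among them.

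Several inflammatory signals were higher in tumors than in the treated colon. Of 39 cytokine and chemokine genes 19 rose and 5 fell, with a median of 0.30. Il23a, a subunit of interleukin 23, read 4.82, 5.08 and 5.36 in colon, 4.67, 5.05 and 5.21 in untreated colon and 7.91, 8.27 and 8.72 in tumors (3.21 ± 0.11, adjusted p = 1.66e-31). Of 2 cytokine genes that interleukin 23 promotes, neither passed, Il17a (0.11 ± 0.12) and Il22 (0.023 ± 0.058). Tnf rose by 1.50 ± 0.15, Il1a by 2.08 ± 0.24, Il11 by 1.19 ± 0.27 and the neutrophil chemokine Cxcl1 by 1.45 ± 0.16. Il1b rose by 1.30 ± 0.35 and overlapped in 3 tumors. Ccl28, a chemokine of the colon epithelium for IgA cells, fell by 1.98 ± 0.16, and the B cell chemokine Cxcl13 fell by 1.33 ± 0.25. Il6 (0.22 ± 0.21) and Ifng (0.042 ± 0.082) did not pass. Of the 26 interferon response genes 3 rose and 4 fell (11.5% and 15.4%), below the 21.0% and 20.2% of all genes. Usp18 rose by 1.36 ± 0.22 while Oasl2 fell by 0.81 ± 0.22. Of the 19 cytokine rises Il23a, Cxcl14 and Cxcl16 remained with the smooth muscle covariate, of the 5 falls Ccl28, and of the interferon calls none.

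Immune cell markers split by type. All 10 measured B cell genes fell, with a median of -1.12, but their groups overlapped. Ms4a1, which encodes CD20, read 5.46, 5.81 and 8.15 in tumors and 5.64, 8.41 and 9.43 in colon (-1.95 ± 0.37, adjusted p = 1.12e-05), and tumor replicate 3 read 8.15 where the other 7 tumors read at most 6.04. Of 10 MHC class II genes 8 fell and none rose, and the groups overlapped for all 10. Between tumors and untreated colon 1 of these 10 fell and none rose, with a median of 0.028. Mast cell genes gave 9 rises and 1 fall of 11, with the proteases Mcpt2 (2.50 ± 0.37) and Mcpt1 (2.13 ± 0.40) leading the rises. The groups overlapped for all 9 rises. Kit, which interstitial cells share, was the fall, at -0.65 ± 0.11. Neutrophil genes gave 8 rises and 1 fall of 14, with Lrg1 (1.33 ± 0.24) and S100a8 (1.11 ± 0.35) higher and Ly6g (-1.19 ± 0.19) lower, and the groups overlapped for all 8 rises. Of 12 macrophage genes 2 rose and 3 fell. Cd163, a scavenger receptor of resident macrophages, fell by 1.92 ± 0.12 with no overlap, whereas Csf1r (-0.077 ± 0.091) did not pass. T cell genes gave 2 rises (Ctla4 0.45 ± 0.13 and Foxp3 0.37 ± 0.13, both of regulatory T cells) and 3 falls of 13, and Cd3e was at -0.25 ± 0.17. Foxp3 did not pass without tumor replicate 2 (adjusted p = 0.0764) or 3 (adjusted p = 0.0615). Of 11 cytotoxic and NK genes 3 fell. Over all genes 21.0% rose and 20.2% fell. The macrophage list gave 16.7% and 25%, the T cell list 15.4% and 23.1%, and the cytotoxic and NK list 0% and 27.3%. Cma1 of the mast cell rises and Cd163 remained with the smooth muscle covariate, and no call of the B cell, MHC class II, neutrophil, T cell and NK lists did. Ms4a1 was at -1.74 ± 0.79 there (adjusted p = 0.2), nearly as low as before with a larger error, whereas S100a8 turned to -0.77 ± 0.71.

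In the insulin and IGF pathway, whose receptor the study's knockout removes, 9 of 25 genes rose and 11 fell, with a median of -0.12. Insr fell by 0.40 ± 0.10 and Igf1r rose by 0.37 ± 0.098, with 8.28, 8.51 and 8.94 in colon and 7.70, 8.20 and 8.50 in tumors for Insr. Insr in untreated colon was higher still, at 8.70, 9.01 and 9.16. Downstream, Akt1 (0.46 ± 0.048) and Akt2 (0.58 ± 0.058) rose without overlap, Foxo3 (-0.71 ± 0.068) fell without overlap, and the adaptor Irs1 rose by 0.32 ± 0.092 and Irs2 fell by 0.46 ± 0.14. Pck1, a gluconeogenic enzyme that insulin represses, fell by 2.54 ± 0.22 from 8.55, 9.77 and 10.21 in colon to 6.35, 7.00 and 8.23 in tumors. The ligand gene Igf1 rose by 0.55 ± 0.13. With the smooth muscle covariate Igf1r, Akt1, Akt2, Pck1 and Foxo3 kept their calls, and Insr became -0.076 ± 0.22.

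Other pathways were mixed. Over all genes 21.0% rose and 20.2% fell. The BMP list gave 34.8% and 30.4%, the Notch list 38.1% and 14.3% and the EGF list 26.7% and 33.3%. The prostaglandin list gave 22.2% and 50%, and the DNA repair list 45% and 15%. Of 23 BMP genes 8 rose and 7 fell, with the ligands apart: Bmp7 rose by 1.83 ± 0.12 and Bmp3 and Bmp2 fell, at -1.62 ± 0.12 and -1.35 ± 0.13. The antagonist Chrdl1 fell by 2.14 ± 0.16 and the decoy receptor Bambi rose by 1.14 ± 0.088. In the Notch list 8 of 21 rose and 3 fell, with Notch1 at 0.86 ± 0.081 and Hes6 at 1.47 ± 0.071 higher and the main target Hes1 at -0.12 ± 0.097. Of 15 EGF ligand and ErbB genes 4 rose and 5 fell, with Egfr at 0.37 ± 0.070, Nrg1 at 0.84 ± 0.17 and the ErbB brake Lrig3 at -1.52 ± 0.095. In the prostaglandin list 4 of 18 rose and 9 fell. Ptgs2, the inducible cyclooxygenase, rose by 1.05 ± 0.27 and Abcc4, a prostaglandin exporter, by 1.14 ± 0.081. Slco2a1 and Hpgd, which take up and degrade prostaglandins, fell, at -1.71 ± 0.10 and -1.75 ± 0.14, and the receptor Ptger3 fell by 2.03 ± 0.12. Of 20 DNA repair and p53 target genes 9 rose and 3 fell. Cdkn2a rose by 0.72 ± 0.075 and Parp1 by 0.65 ± 0.065, and Mgmt, which removes the kind of alkyl lesion AOM makes, fell by 0.40 ± 0.076. Under the smooth muscle covariate the BMP list kept 5 of 8 rises and none of 7 falls, with Bmp7 at 1.53 ± 0.25, Bmp3 at -0.59 ± 0.21, Bmp2 at -0.62 ± 0.27 and Chrdl1 at -0.32 ± 0.20. The Notch list kept 3 of 8 rises and 1 of 3 falls, the EGF list none of 4 rises and, of 5 falls, Lrig3. The prostaglandin list kept Abcc4 of its 4 rises and 5 of 9 falls, and the DNA repair list 2 of 9 rises and none of 3 falls.

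Genes of microRNAs, named here after their values were seen, are on these arrays too, although their probe sets may not separate a mature microRNA from its hairpin or host transcript. Of 426 measured, 41 rose and 25 fell, shares below those of all genes, with a median of 0.014. Their mean level was low, 4.74 in tumors and 4.72 in AOM+DSS colon, below the limit of 5 set for dim genes. The mature sequences (RefSeq, GRCm38.p6) of the genes described are given 5′ to 3′ with the seed, bases 2 to 8, in capitals.
miR-192-5p: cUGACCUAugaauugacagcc
miR-215-5p: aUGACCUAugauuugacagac
miR-194-5p: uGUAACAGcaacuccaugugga
let-7f-5p: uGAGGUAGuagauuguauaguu
let-7a-5p: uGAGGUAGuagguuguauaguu
miR-31-5p: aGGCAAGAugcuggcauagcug
The first pair share the seed UGACCUA and both are known from gut epithelium. The gene Mir192 fell from 7.27, 7.92 and 8.62 in colon to 5.66, 5.93 and 7.11 in tumors (-1.65 ± 0.24, adjusted p = 5.98e-08) without overlap and Mir215 fell by 0.62 ± 0.13. Mir194-2, whose gene lies beside Mir192 on chromosome 19, fell by 1.05 ± 0.23, and Mir194-1, which gives the same miR-194-5p, fell by 0.45 ± 0.10. Of 11 measured let-7 genes 2 fell, 1 rose and 8 did not pass. Mirlet7f-1 fell by 1.61 ± 0.26 and Mirlet7a-1 fell by 0.66 ± 0.13, and both lie on chromosome 13 and share the seed GAGGUAG. Mirlet7e rose by 0.62 ± 0.16, and Mirlet7f-2, another gene of the same let-7f-5p, was at 0.030 ± 0.088. Mir31, with a seed of its own, rose from 4.71, 5.66 and 5.82 in colon to 5.98, 6.69 and 6.87 in tumors (1.03 ± 0.14, adjusted p = 4.57e-09), every tumor above every colon sample. The smooth muscle covariate left 3 of the 41 rises and 3 of the 25 falls, Mir31 and Mirlet7f-1 among them. There Mir192 was at -0.55 ± 0.49 (adjusted p = 0.607), Mir194-2 at -0.35 ± 0.48 (adjusted p = 0.77) and Mir215 at -0.75 ± 0.28 (adjusted p = 0.0895).

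The same contrast in knockout mice shares no array with the one above. Both contrasts took each gene's spread from all 57 arrays, however, so their calls are not independent tests. In knockout mice 9511 genes passed, 4761 higher and 4750 lower (21.5% and 21.4%). Across 22180 genes, which are not independent replicates, the changes of the 2 genotypes correlated with Pearson's r at 0.947 and Spearman's rho at 0.859. Of the genes that rose in fl/fl mice 3806 also rose in knockout mice, 81.7% of the fl/fl and 79.9% of the knockout rises, and 3772 fell in both, 84.2% and 79.4%. The number called in opposite directions was 3. Of the 436 rises of at least 2-fold, 426 were called higher in knockout mice, and of the 685 falls 678 were called lower. Notum changed by 5.07 ± 0.11, Mmp7 by 5.04 ± 0.25, Slc26a3 by -4.21 ± 0.29 and Cyp2c55 by -4.11 ± 0.38 there. In the test of the difference between the genotypes' changes (limma) 0 genes passed (0%), and 1470 had an unadjusted p under 0.05, 6.63% of 22180. The smallest adjusted p was 0.186, shared by Ica1l (0.56 ± 0.12, fl/fl minus knockout change), Il5ra (0.98 ± 0.21) and Prrg1 (0.66 ± 0.14).

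**Figure D5:**
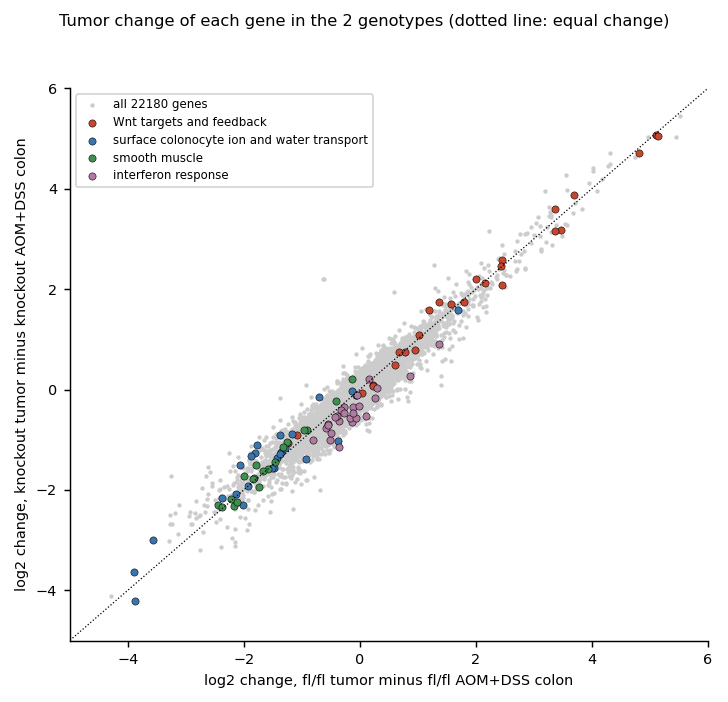
Log2 change from AOM+DSS colon to tumor of each of 22180 genes in fl/fl (x axis) and knockout mice (y axis), with members of 4 lists in colour and a dotted line for equal change. Points lie along the line (Pearson r 0.947), with Wnt targets at the upper right and surface transport and smooth muscle genes at the lower left.

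Set against untreated colon, with which the comparison shares its tumor arrays, 10063 genes passed in tumors, 5075 higher and 4988 lower (22.9% and 22.5%). The values of the comparisons stand side by side, since they share arrays. Pnliprp1 was 5.31 ± 0.15 above untreated colon and AOM+DSS colon differed from untreated colon by -0.22 ± 0.14, and for Slc26a3 these values were -3.96 ± 0.30 and -0.075 ± 0.28. Insl5 gave -3.15 ± 0.26 and 0.028 ± 0.25. For Wif1 they were 5.78 ± 0.14 and 0.63 ± 0.13 (adjusted p = 0.000316). Il1b was 4.26 ± 0.35 in tumors and 2.97 ± 0.33 in AOM+DSS colon relative to untreated colon, and Tnf 2.07 ± 0.15 and 0.58 ± 0.14. Mast cell and neutrophil lists gave 10 of 11 and 12 of 14 rises against untreated colon, and the interferon list gave 20 of 26 rises and no fall. The mean of the 10 B cell genes ranged from 5.77 to 7.30 in untreated colon, from 5.95 to 8.51 after AOM+DSS and from 5.65 to 7.65 in tumors, with all groups overlapping.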

How the data were processed

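Total RNA of 57 mouse distal colon and tumor samples was measured on Affymetrix whole-transcript arrays, and the authors deposited RMA log2 values per the submitters' processing notes, with 41345 probe sets in the table. Software version and genome build were not given in the sources used here, so coordinates are only those of the RefSeq tables (GRCm38.p6) used for promoter and microRNA sequences. From the deposited log2 values, 23521 probe sets with 1 gene symbol in the platform annotation were kept (1814 had several and 16010 none), and the brightest probe set stood for each of 22180 genes. limma 3.58.1 (R 4.3.3) fitted 6 group means, genotype by condition, over all arrays (51 residual degrees of freedom), 2-sided with Benjamini-Hochberg adjustment over all genes and a threshold of 0.05. Precision is limited by the number of arrays. Named genes are the 24 largest rises and falls outside predicted models, leading members of each gene list, insulin receptor pathway genes and the genes with the smallest p of the genotype difference. Others, among them Hoxd and microRNA genes, were chosen after their values were seen. The comparison and the gene lists were chosen with earlier results of these data known. The fit was tested on simulated arrays in which genes varied independently and only a small share was changed. That test does not cover a change as broad as the one seen here or a shift in tissue composition. Alternatives covered scaling, dim genes, probe sets, the prior, samples in the fit, array weights, the replicate number, list means as covariates and leaving out samples.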

Additional observations from a re-analysis of the deposited data

Results flagged for a closer look

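In each group of samples, the gap of the highest and the lowest sample to the next one was set against the group's range, for the list means and for the genes given sample by sample. Of 208 groups, 28 had a sample standing apart, and chance alone gives about 1 in 20 groups that are independent. These groups share samples and genes, and some genes were chosen after their values were seen, so the count is not a test against chance. All values are log2.

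Tumor replicate 7 was the lowest tumor for Mt4 (7.34, the others from 9.73), Krt36 (7.39, the others from 9.29), Erich3 (8.42, from 9.62), Reg3g (7.51, from 9.37), Prox1 (10.65, from 11.24) and Gata5 (7.64, from 8.38), and for the mean of metallothionein and zinc transport genes (9.12, from 9.48). Tumor replicate 3 was apart in B cell genes, with a list mean of 7.65 where the others reached 6.06, and Ms4a1 at 8.15 where they reached 6.04. Tumor replicate 2 had an adipocyte mean of 7.36, the others at most 6.82, and tumor replicate 6 a microRNA gene mean of 4.64, the others at least 4.73.

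Among AOM+DSS colon samples, replicate 4 was the highest for the means of matrix metalloproteinases (8.34, the others at most 7.77), macrophages (9.24, at most 8.92) and vascular endothelium (8.05, at most 7.65). It was also the highest for Prox1 (7.74, at most 6.86), Spock2 (7.57, at most 7.16) and Krt36 (7.10, at most 6.16), 3 genes whose lowest tumors lay above it. Replicate 7 was the highest for Cyp2b10 (9.76, at most 6.26), Reg3g (11.02, at most 7.48) and Gata5 (7.27, at most 6.25), and for the means of P450 genes (8.33, at most 7.54) and of cytotoxic and NK cell genes (6.44, at most 5.96). Replicate 6 was the lowest for Hoxd13 (9.64, the others from 10.62), Hoxd11 (7.72, from 8.96), Hoxd10 (7.25, from 8.28) and Erich3 (4.87, from 5.31). Replicate 8 was the highest for Mt4 (6.94, at most 5.31), and replicate 9 the lowest for Epcam (11.70, from 11.91).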

How the results depend on the processing

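The count of 9143 genes stayed within 1.5 times under other scaling, filters, probe set means, prior, weights and sample choices, and without single samples it ran from 8708 to 9096 (at least 2-fold from 1040 to 1163). The smooth muscle mean as a covariate gave 1849 genes, 594 of at least 2-fold, 2209 in knockout mice and 2410 against untreated colon. It turned the sign of Car3 (0.73), Ctla4 (-0.26), Hoxd10 (0.95), Hoxd11 (1.16), Hoxd13 (0.38), Il1b (-0.17), Irs2 (0.21), Krt6a (1.51), Lrg1 (-0.043), Lum (0.058), S100a8 (-0.77), Slc9a3 (-0.47) and Tmprss11a (0.98), and the cause was not tested. None of these turned values passed in that limma fit (lowest adjusted p = 0.373, for Hoxd10), so none of these named genes was called in the other direction. Over all genes, 7 of the 9143 calls passed there with the opposite sign. The squamous mean turned Anxa1 (0.25), and leaving out tumor replicates 2, 6 and 7 turned Hoxd11 (0.12). For the genotype difference 1 gene passed with only the groups compared (Ica1l, adjusted p = 0.0208) and 1 with the replicate number as a block (Prrg1, adjusted p = 0.0464).

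Nothing in the labels says that samples of one number belong together. Deviations of same-numbered tumors and colon samples correlated between -0.071 and 0.23, and 0 of 8 tumors correlated best with its own number. With the replicate block 9254 genes passed, 8939 of them the same calls. The number of arrays limits what can be seen for small changes, and composition cannot be told apart from change within cells.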
